A study of Mus musculus with 13 samples.

Results

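The RIG-I-like receptors and their partners described here are 6 genes: Ifih1 (MDA5), Ddx58 (RIG-I), Dhx58 (LGP2), the ubiquitin ligase gene Trim25, the adaptor gene Mavs and Eif2ak2 (PKR). They were found by symbol, through the Ensembl identifier without its version, and are 6 of 54532 genes in the table of raw counts. All 6 had a mean above 1 CPM (each library's counts being scaled to sum to 1e6) in every pair of libraries compared, so none was lost to the filter on low values.

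The counts come from YUMM1.7, a wild-type mouse melanoma cell line grown in culture. Cells received DMSO, the ADAR1 inhibitor ADAR1i-124 at 10 μM for 12 h, the DNA methylation inhibitor 5-AZA-CdR at 1 μM for 72 h, or 1 μM 5-AZA-CdR for 72 h followed by ADAR1i-124 for 12 h, called the combination below. The RNA was sequenced as total RNA, or after precipitation with J2, an antibody to double-stranded RNA, with Z22, an antibody to Z-form RNA, or with IgG as the control. Each of the 13 conditions has 1 library, so no difference between treatments has a replicate check and none is given a p-value. The labels name no ADAR1i-124 dose for the combination, and the study's supplement gives 10 μM, with 1 μM as another dose tried. The label of the IgG library names no treatment. The RNA to be precipitated was first digested with RNase I, which cuts single-stranded RNA. The combination library of total RNA was not read because its counts follow the genes on the other strand, which leaves 12 libraries. In cultures sequenced in bulk, fewer cells that express a gene and less RNA per cell cannot be told apart.

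Total counts were 17015425, 17617961 and 34571822 in the total RNA libraries with DMSO, ADAR1i-124 and 5-AZA-CdR, 11767409 to 14396132 with J2, 8167960 to 14663357 with Z22 and 15324595 with IgG. A gene rich in ribosomal sequence, Gm42418, held 34.9% of the Z22 library from DMSO cells and 10.6% to 15.8% of the other Z22 libraries. The median log2 change of all genes against that DMSO library was 0.81 for ADAR1i-124, 1.06 for 5-AZA-CdR and 0.82 for the combination. Of the melanocyte markers, Mitf was at 9.68 to 33.1 CPM, the other 6 were at most at 0.625 CPM, and Tyr and Tyrp1 were at 0 in every library. The leukocyte markers summed to 0.0653 to 2.49 CPM. The epithelial markers Epcam and Krt8 summed to 2.2 to 13.5 CPM in the 5 libraries with 5-AZA-CdR, alone or in the combination, and to at most 0.164 CPM in the others. The endothelial markers, nearly all Cdh5 with Pecam1 at most at 2.3 CPM, summed to 26.1 to 82.7 CPM with 5-AZA-CdR and to 3.33 to 18.2 CPM in the others. With ADAR1i-124 against DMSO this sum was 18.2 against 4.06 CPM in total RNA, 3.54 against 8.45 CPM in J2 and 4.23 against 7.1 CPM in Z22. The part of these markers in the results was not tested. The Y-linked gene Ddx3y did not follow the treatment labels. It was at 3.35, 48.9 and 36.7 CPM in total RNA with DMSO, ADAR1i-124 and 5-AZA-CdR, at 26.3, 1.46, 1.35 and 5.01 CPM with J2 in the same order with the combination last, and at 19.8, 8.32, 0 and 2.51 CPM with Z22. The 0 allows up to 0.367 CPM (3 counts). The Y-linked genes Kdm5d and Uty were also higher with ADAR1i-124 than with DMSO in total RNA and lower in J2. Libraries that share a treatment label but differ in assay thus differ in the counts of these genes, and whether they come from the same cells was not tested.

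MDA5 and RIG-I are cytoplasmic helicases that bind double-stranded RNA, MDA5 along long duplexes and RIG-I at duplex ends that carry a triphosphate. Both pass the signal through their CARD domains to MAVS on mitochondria, and TRIM25 was described as a ligase that adds ubiquitin chains to RIG-I. LGP2 has the helicase but no CARD, and tunes the other receptors. PKR is a kinase that binds double-stranded RNA and phosphorylates eIF2α, which slows translation. Most of these genes are themselves induced by interferon, through the ISRE, the interferon-stimulated response element. ADAR1 edits adenosines in cellular double-stranded RNA, which lowers its recognition by MDA5 and PKR.

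The members sit on 4 chromosomes of GRCm38. Ifih1 (ENSMUSG00000026896) is on the reverse strand of chromosome 2 from 62595798 to 62646255, and Mavs (ENSMUSG00000037523) on the forward strand of the same chromosome from 131234063 to 131248025. Ddx58 (ENSMUSG00000040296) is on chromosome 4, reverse strand, from 40203773 to 40239828. Dhx58 (ENSMUSG00000017830), reverse strand, from 100694884 to 100704271, and Trim25 (ENSMUSG00000000275), forward strand, from 88999376 to 89020293, are on chromosome 11. Eif2ak2 (ENSMUSG00000024079) is on chromosome 17, reverse strand, from 78852564 to 78882573. Exons of Dhx58 and Eif2ak2 share bases with genes on the opposite strand, which would limit their counts if reads were counted without strand. The total RNA combination library follows the other strand, which counting without strand would not give. The overlapping Dhx58os had at most 9 counts in any of the 12 libraries, and Gm26637, which overlaps Eif2ak2, at most 49.

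A pair of GAAA repeats is the core of the ISRE. The letters GAAANNGAAA were searched on both strands in the RefSeq promoters of GRCm38.p6, which run from 250 bases before to 50 bases after a start site. They occur in 1131 of 32851 promoters (3.44%), and in 1079 of 27025 genes (3.99%). Of the 5 members with a promoter in that table, Ifih1, Ddx58 and Eif2ak2 held 1 match each. The Ddx58 match reads on the opposite strand. Below, the windows of these 3 genes are shown in the direction of the gene, with the match in capitals.
Ifih1, chr2:62646206-62646233, reverse strand: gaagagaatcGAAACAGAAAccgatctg
Ddx58, chr4:40239804-40239833, reverse strand: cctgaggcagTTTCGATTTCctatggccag
Eif2ak2, chr17:78882535-78882564, reverse strand: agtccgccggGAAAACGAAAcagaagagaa
The matches begin 33, 3 and 19 bases into the transcript, counting the start site as base 1. The windows of Mavs and Trim25 held no such letters, which says nothing about other sites. Trim25 and Dhx58 were also lower with ADAR1i-124 in total RNA, Trim25 without a match and Dhx58 without a promoter to search. Whether the matches have a part in the changes was not tested.

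Per length, the members ranged over less than an order of magnitude in the DMSO library of total RNA. In CPM per kilobase of exon, Ddx58 was highest at 59.7, followed by Eif2ak2 at 52.4, Trim25 at 36.1, Ifih1 at 27.2, Dhx58 at 23 and Mavs at 20.3. None of the 95% Wilson counting intervals of neighbours in this order overlapped, but with 1 library their spread over cultures is unknown. With ADAR1i-124 the order changed. Mavs was then highest at 17.2 CPM per kilobase, above Eif2ak2 at 9.7, Trim25 at 8.99, Ddx58 at 6.87, Ifih1 at 2.59 and Dhx58 at 0.694, and only the intervals of Eif2ak2 (9.08 to 10.4) and Trim25 (8.42 to 9.59) overlapped. With 5-AZA-CdR the order was that of DMSO, from 50.9 for Ddx58 to 14.9 for Mavs, with overlapping intervals for Ifih1 and Dhx58. Reads were not tagged by molecule, so copies of 1 molecule may be counted more than once, and these intervals, like all below, cover counting error alone.

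RNA of Ifih1, the gene of the receptor MDA5, was lowest with the inhibitor in every assay. Ifih1 was at 222 CPM with DMSO, 21.2 CPM with ADAR1i-124 and 204 CPM with 5-AZA-CdR in total RNA. With J2 it was at 161, 52.5, 274 and 286 CPM in that order, with the combination last. With Z22 it was at 198, 111, 215 and 294 CPM, and with IgG at 160 CPM. The ADAR1i-124 library was the lowest of each assay, and the combination library was the highest of both precipitations.

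RNA of Ddx58, the RIG-I gene, had the same lowest library in total RNA and J2 but not in Z22. Ddx58 was at 421, 48.4 and 359 CPM in total RNA with DMSO, ADAR1i-124 and 5-AZA-CdR. With J2 it was at 275, 118, 349 and 376 CPM, with the combination last. With Z22 it was at 134, 142, 280 and 327 CPM and with IgG at 212 CPM, so that there DMSO and ADAR1i-124 were close and below both libraries with 5-AZA-CdR.

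RNA of Dhx58, the LGP2 gene, had the widest range of the 6. Dhx58 was at 75.2 CPM (1279 counts) with DMSO, 2.27 CPM (40 counts) with ADAR1i-124 and 79.5 CPM (2747 counts) with 5-AZA-CdR in total RNA. With J2 it was at 61.7, 10.4, 120 and 91.8 CPM in the same order, with the combination last. With Z22 it was at 75.4, 29.3, 77 and 102 CPM, and with IgG at 51.7 CPM. From highest to lowest library it spanned 35-fold in total RNA, 11.5-fold in J2 and 3.48-fold in Z22.

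Trim25 and Eif2ak2 had the same shape with a smaller range. Trim25 was at 208, 51.7 and 194 CPM in total RNA, at 149, 81.8, 233 and 218 CPM with J2, at 148, 114, 212 and 228 CPM with Z22 and at 129 CPM with IgG. Eif2ak2 was at 268, 49.6 and 229 CPM in total RNA, at 251, 118, 281 and 312 CPM with J2, at 207, 192, 247 and 267 CPM with Z22 and at 201 CPM with IgG. For both, ADAR1i-124 gave the lowest library of each assay.

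RNA of the gene of MAVS, the adaptor through which MDA5 and RIG-I signal, did not have this order of libraries. Mavs was at 67.9, 57.6 and 49.8 CPM in total RNA with DMSO, ADAR1i-124 and 5-AZA-CdR. With J2 it was at 30, 39, 26.5 and 27.2 CPM, highest with ADAR1i-124. With Z22 it was at 22.3, 43.4, 45.7 and 29.8 CPM, lowest with DMSO, and with IgG it was at 39.5 CPM. Its highest and lowest libraries differed by 1.36-fold in total RNA, 1.47-fold in J2 and 2.05-fold in Z22.

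**Figure D1:**
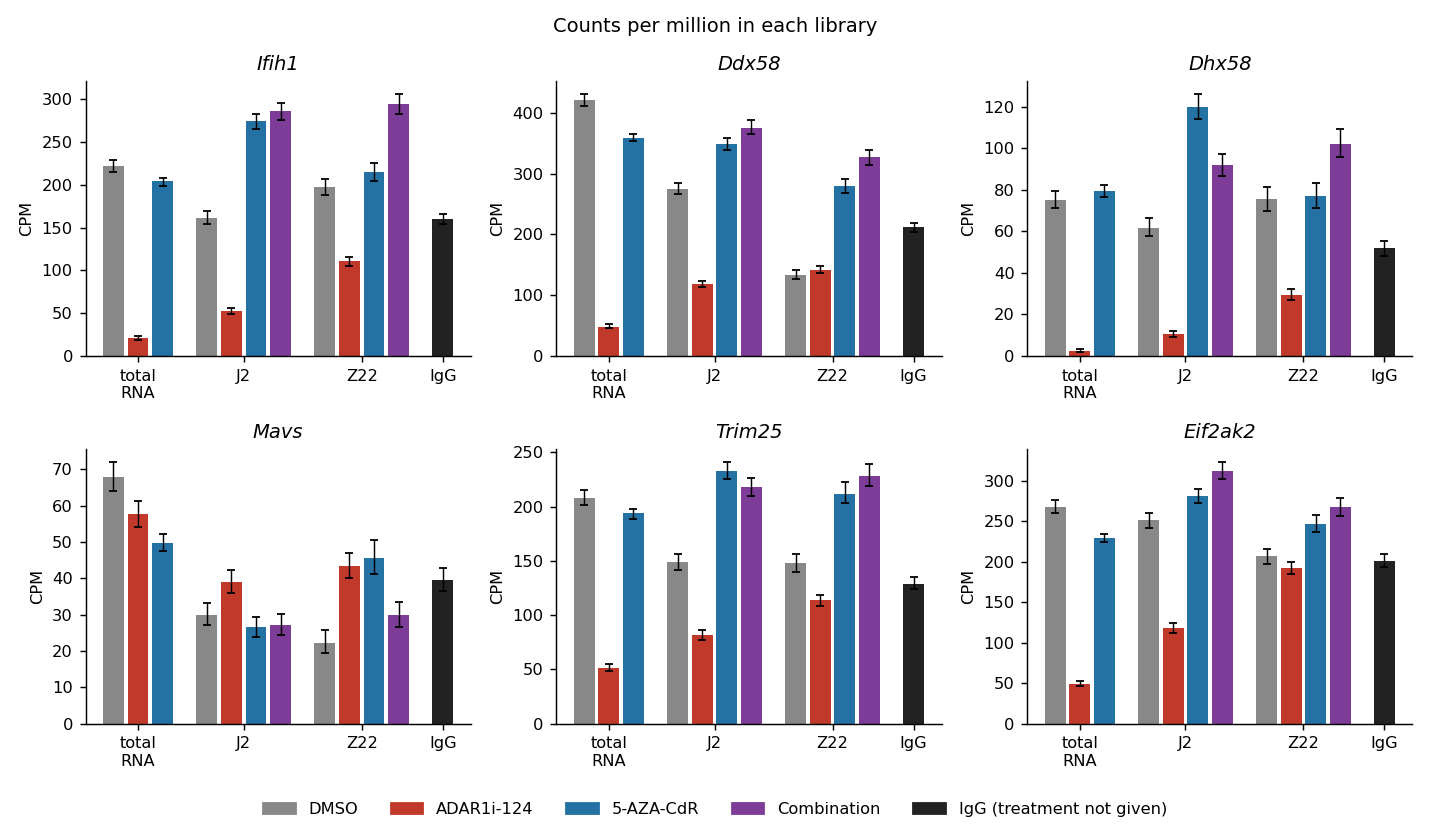
Level of each gene in 12 libraries, in CPM on axes that start at 0, with bars grouped by assay and coloured by treatment; error bars are 95% Wilson intervals for counting error, 1 library per bar. The ADAR1i-124 bar is the lowest of total RNA and of J2 for every gene but Mavs, for example 21.2 against 222 CPM for Ifih1 in total RNA.

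The first comparison is of ADAR1i-124 alone with DMSO for the sensor genes, with 1 library on each side in each assay. In total RNA, 5 of the 6 members were lower by 2-fold or more with ADAR1i-124, where 8.7% of 13693 genes were that much lower and 7.71% that much higher. A change is the log2 ratio of (CPM + 0.5), a scale on which low genes appear to change less than they do, and the intervals are Wilson intervals of the ratio of the reads themselves. Dhx58 changed by -4.77 (interval -5.50 to -4.60), which is 33.1-fold in CPM and placed it 39th from the lowest change of all genes tested. Ifih1 changed by -3.36 (-3.54 to -3.23) and Ddx58 by -3.11 (-3.22 to -3.02), placed 83rd and 103rd. The kinase gene Eif2ak2 changed by -2.42 (-2.54 to -2.33) and the ligase gene Trim25 by -1.99 (-2.11 to -1.90). Mavs was 1.18-fold lower (log2 -0.24, -0.36 to -0.12), inside the 2-fold line.

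The DMSO and ADAR1i-124 libraries of total RNA also differed in Ddx3y, as given above, whereas the 5-AZA-CdR library was near the ADAR1i-124 library in that gene. With the 5-AZA-CdR library as the reference, chosen after the data were seen, the same 5 members were lower, by -4.85 for Dhx58, -3.24 for Ifih1, -2.88 for Ddx58, -2.19 for Eif2ak2 and -1.90 for Trim25. Of all genes, 17.8% were that much lower and 7.54% higher against this reference. The part of the Y-linked difference in these values was not tested.

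In J2, 4 members were at least 2-fold lower with ADAR1i-124, beside 10.8% of 13522 genes lower and 7.37% higher. Dhx58 changed by -2.51 (-2.82 to -2.31), Ifih1 by -1.61 (-1.74 to -1.50), Ddx58 by -1.21 (-1.30 to -1.13) and Eif2ak2 by -1.09 (-1.18 to -1.01). Trim25 was 1.82-fold lower (-0.86, -0.97 to -0.76) and did not reach the line, and Mavs was 1.3-fold higher (0.37, 0.19 to 0.57). The order of the 6 genes by change was that of total RNA, except that each value was nearer to 0 or above it. With the 5-AZA-CdR library as the reference in J2, 5 members were past the line, from -3.47 for Dhx58 to -1.25 for Eif2ak2, beside 12% of all genes lower and 5.68% higher.

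In Z22, 1 member was at least 2-fold lower, Dhx58 with -1.35 (-1.54 to -1.19), beside 5.13% of 12799 genes lower and 42.9% higher. Ifih1 changed by -0.83, Trim25 by -0.38, Eif2ak2 by -0.10, Ddx58 by 0.08 and Mavs by 0.94. Relative to the median of all genes, which was 0.81, these values were -2.16 for Dhx58, -1.64 for Ifih1, -1.19 for Trim25, -0.91 for Eif2ak2, -0.73 for Ddx58 and 0.13 for Mavs, so 3 members were then past the line, all lower, beside 17.5% of all genes lower and 17.6% higher. The sign of Ddx58 depends on this scaling. With edgeR's TMM factors it was -0.59, and the split of all genes went from 5487 higher and 657 lower to 3023 higher and 1948 lower. With the 5-AZA-CdR library as the reference it was -0.98, and Dhx58 at -1.38 was again the 1 member past the line, beside 12% of all genes lower and 2.03% higher.

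With library totals as the scaling, the change with ADAR1i-124 was for every member lowest in total RNA, intermediate in J2 and highest in Z22. Total RNA was also lowest for all 6 with TMM factors, with DESeq2's size factors and relative to the median of all genes, and for 5 with the 5-AZA-CdR library as the reference, where Mavs was at 0.21 in total RNA and -0.07 in Z22. The order of J2 and Z22 depended on the scaling. Z22 was below J2 for Trim25 and Mavs with TMM, and for Ifih1, Trim25 and Mavs with DESeq2's size factors or relative to the median, where Ifih1 was at -1.64 in Z22 and -1.61 in J2. The full order, with library totals, was found in 44.3% of the 12344 genes measured in all 3 comparisons. Among the 245 genes at least 4-fold lower in total RNA, it was found in 78.4%, with median changes of -2.84 in total RNA, -1.63 in J2 and -0.39 in Z22. These genes were chosen by the total RNA change, which by itself makes that value the lowest for many of them.

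**Figure D2:**
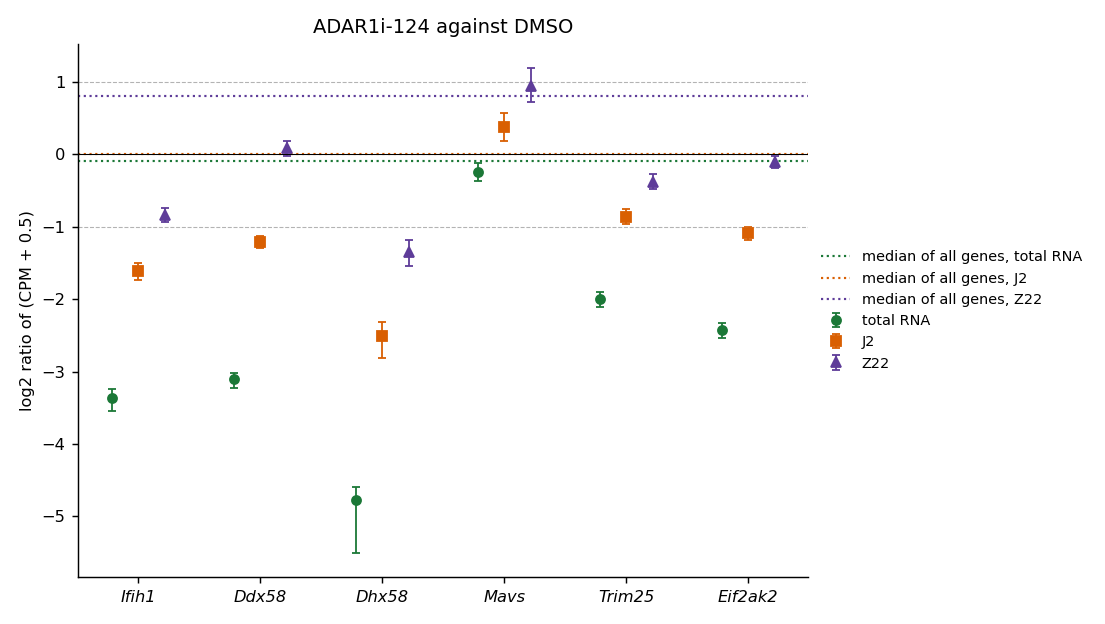
Change of each gene with ADAR1i-124 against DMSO, as the log2 ratio of (CPM + 0.5), for total RNA (circles), J2 (squares) and Z22 (triangles), 1 library per condition; error bars are 95% counting intervals, dotted lines the median of all genes in each assay and dashed lines 2-fold. Dhx58 is lowest in every assay, at -4.77, -2.51 and -1.35, and Mavs is highest in every assay.

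The second comparison is of 5-AZA-CdR with DMSO. In total RNA none of the 6 members was past the 2-fold line, where 17% of 14391 genes were higher and 8.96% lower. The changes ran from -0.44 (-0.56 to -0.34) for Mavs to 0.08 (-0.02 to 0.18) for Dhx58, with Ifih1 at -0.12, Ddx58 and Eif2ak2 at -0.23 and Trim25 at -0.10. In J2 none was past the line either, beside 8.61% of genes higher and 6% lower. Dhx58 was nearest to it at 0.95 (0.84 to 1.09), followed by Ifih1 at 0.76, Trim25 at 0.65, Ddx58 at 0.34 and Eif2ak2 at 0.16, and Mavs was at -0.18. In Z22, Ddx58 at 1.06 (0.96 to 1.16) and Mavs at 1.02 (0.78 to 1.28) were past the line, beside 52.1% of genes higher and 4.1% lower. Both equal the median of all genes to within 0.05, and relative to it they were at -0.0012 and -0.05, while Dhx58 was at -1.03 and Ifih1 at -0.94. With TMM factors the split of all genes went from 7142 higher and 562 lower to 3262 and 2340.

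The combination was read in the precipitated RNA only. Against DMSO in J2, no member was past the line, beside 8.21% of genes higher and 3.88% lower, and the changes ran from -0.14 for Mavs to 0.82 (0.75 to 0.91) for Ifih1, beside a median of all genes of 0.11. Against 5-AZA-CdR alone in J2, none was past the line, beside 1.44% higher and 0.641% lower. Dhx58 was the lowest there at -0.39 (-0.50 to -0.28), and the other 5 lay between -0.10 and 0.15. Against ADAR1i-124 alone, 5 members were at least 2-fold higher in J2, beside 14.3% of 13971 genes higher and 5.64% lower. Dhx58 was higher by 3.08 (2.89 to 3.39), Ifih1 by 2.43 (2.33 to 2.56), Ddx58 by 1.66 (1.59 to 1.75), Trim25 by 1.41 and Eif2ak2 by 1.40, and Mavs was at -0.51 (-0.72 to -0.32). The library with both compounds was thus close to that of 5-AZA-CdR alone, and not to that of ADAR1i-124 alone, for the 5 genes that were at least 2-fold lower in the ADAR1i-124 library of total RNA. By the shares above, few of all genes differed from 5-AZA-CdR alone, so that closeness is not particular to these 5. The comparisons with ADAR1i-124 as reference and as treatment share that library.

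In Z22 the 5 genes were also higher than with ADAR1i-124 alone, by smaller values. Against ADAR1i-124 alone, 4 members were at least 2-fold higher with the combination, beside 9.91% of genes higher and 6.3% lower. Dhx58 was higher by 1.78 (1.63 to 1.96), Ifih1 by 1.41 (1.32 to 1.50), Ddx58 by 1.199 (1.12 to 1.28) and Trim25 by 1.004 (0.91 to 1.10), which was at 0.96 with TMM factors and at 0.99 with a pseudocount of 2 CPM, short of the line. Eif2ak2 was at 0.47 and Mavs at -0.53. Against 5-AZA-CdR alone none was past the line, beside 2.28% higher and 7.11% lower, with values from -0.61 for Mavs to 0.45 for Ifih1 and a median of all genes of -0.18. Against DMSO, Ddx58 at 1.28 (1.19 to 1.38) was past the line, beside 43.4% of genes higher and 5.03% lower, and relative to the median it was at 0.46. With TMM factors the split of all genes went from 5765 higher and 668 lower to 3146 and 2086.

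**Figure D3:**
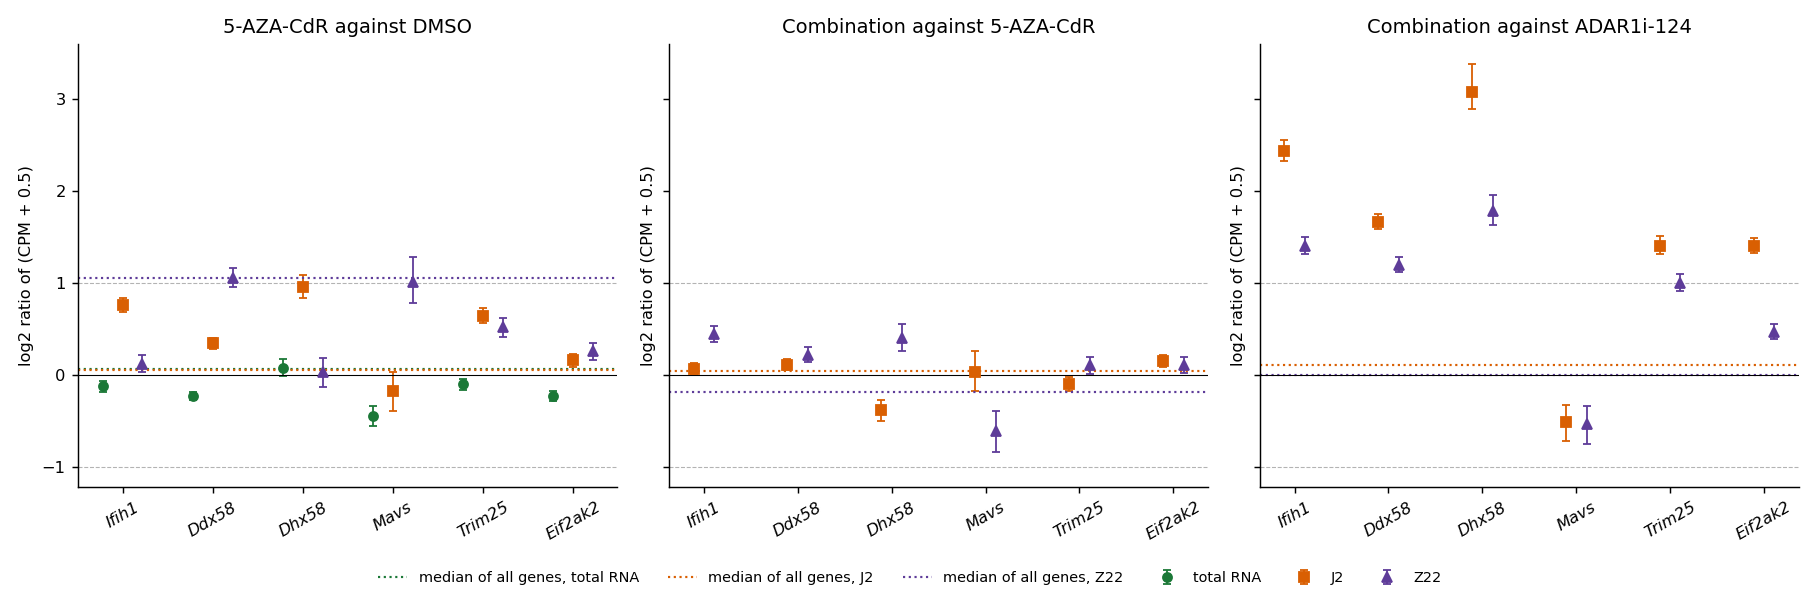
Log2 ratio of (CPM + 0.5) of each gene for 5-AZA-CdR against DMSO, the combination against 5-AZA-CdR and the combination against ADAR1i-124, 1 library per condition, with 95% counting intervals, dotted lines for the median of all genes and dashed lines at 2-fold. In the last panel all genes but Mavs are above 0, from 0.47 for Eif2ak2 in Z22 to 3.08 for Dhx58 in J2.

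The antibody libraries were next compared with each other, which asks whether RNA of the sensor genes was itself enriched. With treatments as blocks, edgeR's quasi-likelihood test with Benjamini-Hochberg adjustment called none of the 6 members in any of 3 contrasts. For Z22 against J2 over 4 treatments, the log2 differences ran from -0.13 (SE 0.204) for Ddx58 to 0.51 (SE 0.354) for Dhx58, with adjusted p from 0.291 to 0.725 in edgeR. No gene of 15079 was called (0% higher), although 3248 had an unadjusted p under 0.05 and DESeq2 called 651 higher and 279 lower. For J2 against total RNA over 3 treatments, the edgeR values were 1.14 (SE 0.458, adjusted p = 0.434) for Dhx58, 0.85 (SE 0.299, adjusted p = 0.380) for Eif2ak2, 0.79 for Ifih1, 0.57 for Ddx58, 0.52 for Trim25 and -0.51 (SE 0.241, adjusted p = 0.492) for Mavs, with 0.0339% of 14767 genes called higher. For Z22 against total RNA they were 1.69 (SE 0.731, adjusted p = 0.436 in edgeR) for Dhx58, 1.33 for Ifih1, 1.13 for Eif2ak2, 0.84 for Trim25, 0.40 for Ddx58 and -0.13 for Mavs, with 0.0811% called higher.

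The ratios of single libraries were also set side by side. Relative to the median of all genes, the log2 ratio of J2 to total RNA was between -0.80 for Mavs and 0.27 for Eif2ak2 with DMSO. With ADAR1i-124 it was 2.28 for Dhx58, 1.59 for Ifih1, 1.58 for Ddx58, 1.54 for Eif2ak2, 0.96 for Trim25 and -0.25 for Mavs. With 5-AZA-CdR it lay between these values for the same 5 genes, from 0.32 for Ddx58 to 0.96 for Dhx58, and Mavs was at -0.53. The ratio of Z22 to total RNA was also highest with ADAR1i-124 for these 5, from 1.43 for Trim25 to 3.73 for Dhx58. The ADAR1i-124 library of total RNA is the denominator in both ratios. The 2 libraries of each ratio differ in Ddx3y, so a ratio compares these libraries and whether they hold fractions of the same RNA was not tested.

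**Figure D4:**
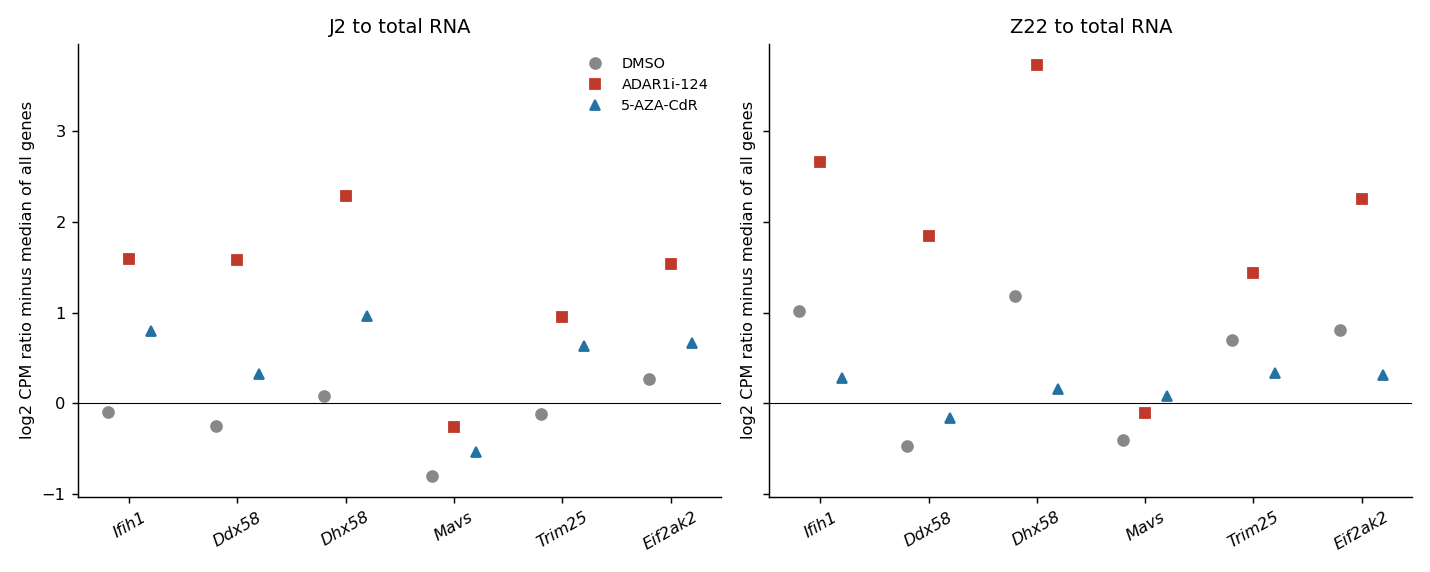
Log2 ratio of the CPM of J2 (left) and Z22 (right) to total RNA of the same treatment label, minus the median ratio of all genes, 1 library per value, so no error is drawn. The ADAR1i-124 squares are the highest of the 3 treatments for every gene but Mavs in Z22, reaching 2.28 and 3.73 for Dhx58.

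Against the IgG library, which shows what is recovered without a specific antibody, 3 of 24 J2 ratios were past 2-fold. These were Dhx58 with 5-AZA-CdR, higher by 1.21 (1.09 to 1.34), and Ifih1 and Dhx58 with ADAR1i-124, at -1.60 and -2.26. Of all genes in J2 against IgG, 13.5% were higher and 8.97% lower with DMSO, 5.63% and 4.46% with ADAR1i-124, 13% and 5.57% with 5-AZA-CdR, and 17.9% and 7.98% for the combination. None of the 24 Z22 ratios was past it, and they ran from -0.81 for Mavs with DMSO to 0.97 for Dhx58 with the combination. With DMSO the median of all genes was -0.83, and relative to it Dhx58 at 1.37, Ifih1 at 1.13 and Trim25 at 1.02 were past the line, beside 24.9% of all genes higher and 24.2% lower on that scale. Of all genes in Z22 against IgG, 11.3% were higher and 45.4% lower with DMSO, 7.15% and 1.85% with ADAR1i-124, 21.4% and 5.13% with 5-AZA-CdR, and 17% and 10.7% for the combination. The IgG level lay between the lowest and highest J2 libraries for 5 genes, and for Mavs it was above all 4 of them (39.5 against at most 39 CPM), within counting error of the highest.

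Other genes of the pathway were read in 3 lists. Of 14 cofactors and regulators of the receptors, 13 passed the filter in total RNA with ADAR1i-124, and 2 were at least 2-fold higher and 2 lower, beside 7.71% and 8.7% of all genes, with a median of 0.08 beside -0.09. Ddx60, a helicase gene described as a cofactor of RIG-I, went from 67.5 to 1.31 CPM (-5.23, -6.28 to -5.10), and Rnf135, whose product Riplet adds ubiquitin to RIG-I, from 7.99 to 2.33 CPM (-1.59). Tnfaip3, the gene of A20, which damps NF-κB signalling, went from 8.7 to 32.6 CPM (1.85, 1.64 to 2.17), and Nlrx1 from 8 to 32 counts (1.26). In J2 with the same treatment 2 of 13 were lower and none higher, beside 10.8% and 7.37% of all genes, Ddx60 at -2.67 and Nlrx1 at -1.57, from 22 to 4 counts. With 5-AZA-CdR, 3 of 14 were higher and none lower in total RNA, beside 17% and 8.96% of all genes. These were Nlrx1 at 2.63, Tnfaip3 at 2.11 and Rnf125, a ligase that marks RIG-I for degradation, at 1.12. In J2, 5 of 14 were higher and none lower, beside 8.61% and 6% of all genes, among them Tnfaip3 at 1.41, Ddx60 at 1.25 and Rnf135 at 1.18. With the combination 4 of 14 were higher and none lower, beside 8.21% and 3.88%, led by Tnfaip3 at 1.82. The shares of all genes given here for each comparison also stand beside the counts of the next 2 lists.

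Of 14 genes that carry the signal from MAVS to interferon, 13 passed the filter and Ifnb1 did not, with 0 to 8 counts in each of the 12 libraries. Irf7, the interferon-induced factor that drives type I interferon genes, had the largest change. It went from 83.6 to 0.851 CPM with ADAR1i-124 in total RNA (-5.96, -7.34 to -5.89) and to 225 CPM with 5-AZA-CdR (1.42). Traf5 was the other gene lower with ADAR1i-124, at -1.28, and none was higher, with a median of 0.12 beside -0.09 for all genes. In J2, Irf7 changed by -3.20 and Ikbke, the gene of the kinase IKKε, by -1.21, and the other 11 did not reach the line. With 5-AZA-CdR, Ikbke and Irf7 were the 2 genes of 13 past the line, both higher, in total RNA (2.28 and 1.42) and in J2 (1.22 and 1.66), and in J2 with the combination (1.06 and 1.49). The kinase gene Tbk1, which acts beside Ikbke, was at 0.67 there and not past the line.

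The 12 genes around PKR and eIF2α gave another picture. In total RNA with ADAR1i-124, 1 was higher and none lower, Ppp1r15a from 35.2 to 106 CPM (1.57, 1.45 to 1.72), whose product GADD34 guides the phosphatase that reverses eIF2α phosphorylation. In J2 the same gene went from 202 to 43.8 CPM (-2.19, -2.33 to -2.08), together with Ddit3, the gene of the stress factor CHOP, at -2.64 and Atf4, the factor translated when eIF2α is phosphorylated, at -1.16. In Z22, Ddit3 changed by -3.56 and Ppp1r15a by -2.46, against a median of all genes of 0.81. Ddit3 in total RNA was at 0.67, not past the line. The direction of Ppp1r15a thus differed between total RNA and both precipitations, and this difference was not tested. The DMSO library was the highest of each precipitation for Ppp1r15a and for Ddit3. Ppp1r15a was at 334 CPM with DMSO in Z22 and at 40 CPM with IgG. In the other treatments it was at 43.8 to 101 CPM in J2 and at 60.4 to 176 CPM in Z22. With 5-AZA-CdR, Atf4 was lower in total RNA (-1.52) and, with Ppp1r15a (-1.18), in J2 (-1.06). In J2 with the combination none of the 12 was past the line.

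In Z22 the counts of the lists stood beside large shares of all genes. With ADAR1i-124, 7 of 13 regulators, 6 of 13 MAVS signalling genes and 4 of 12 PKR genes were at least 2-fold higher, beside 42.9% of all genes, and 1, 1 and 2 were lower, beside 5.13%, with list medians of 1.199, 0.975 and 0.473 beside 0.81 for all genes. The highest of each list were Ppp1cc, the gene of a catalytic subunit of protein phosphatase 1, at 2.70, the IKKα gene Chuk at 2.32 and the eIF2α gene Eif2s1 at 2.70, and Irf7 was the lower gene of its list at -1.91. With 5-AZA-CdR the counts higher were 10 of 13, 7 of 13 and 5 of 12, beside 52.1% of all genes, led by Chuk at 2.74, and 1, 0 and 2 were lower, beside 4.1%. The list medians were 1.52, 1.02 and 0.60 beside 1.06 for all genes. The 2 lower genes of the PKR list were Ddit3 at -2.002 and Ppp1r15a at -1.80. With the combination they were 7 of 13, 9 of 13 and 3 of 12, beside 43.4% of all genes, led by Tnfaip3 at 3.39 and Ddx60 at 2.74, and 0, 0 and 1 were lower, beside 5.03%, the last being Ddit3 at -1.29, with list medians of 1.47, 1.31 and 0.29 beside 0.82.

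The patterns of the members were compared over 11 libraries, as the Pearson r of log2(CPM + 0.5) centred within each assay, among 14070 genes. The libraries share treatments and scaling, and r is given as a description. Among the 5 members without Mavs, r was 0.948 to 0.993, and with Mavs it was -0.344 to -0.083. The genes most like Ifih1 were H2-T24 (0.996), Dtx3l (0.995) and Dhx58 (0.993). Among those most like Ddx58 were Gm4951 (0.991) and Parp9 (0.989), and those most like Dhx58 were Trim30d, Oas1g and Ifi35, from 0.997 to 0.994. Trim25 was most like Adar, the gene of ADAR1 itself (0.992), followed by Dtx3l and Herc6. Eif2ak2 was most like Usp18 (0.993), Mx1 and Ifi44. Usp18, Mx1, Oas1g, Ifi35 and Ifi44 are known interferon-stimulated genes. Mavs was most like Cdc23 (0.986), Fsbp and Gm7665, of which Cdc23 encodes a subunit of the anaphase-promoting complex.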

How the data were processed

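Raw counts per gene were deposited by the authors in 1 table for the 13 libraries. The authors mapped paired reads of 150 bp with STAR in snakePipes to mm10, and the counting tool and its strand setting are not given in the sources used here. Counts were divided by the library's sum over genes (CPM), and 0.5 CPM was added before log2. Genes whose mean over both libraries reached 1 CPM were read, and a change of 2-fold or more was called. Intervals are 95% Wilson intervals, and the level that a count of 0 allows (3 counts) is 0.0868 to 0.367 CPM in the 12 libraries read. Antibodies were compared on counts with edgeR 4.0.16 (R 4.3.3) by the quasi-likelihood test with TMM factors, among genes with at least 1 CPM in at least 2 libraries and with treatment as a block, since treatments are the only repeat. DESeq2 1.42.0 was an alternative. With that block, the p-values rest on how much the antibody difference varies between treatments, and not on replicate cultures.

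Identifiers were matched to GENCODE mouse annotation of GRCm38, which gave a symbol to 54409 genes. The members and lists were chosen with earlier results of these data known. Named are the 6 members, for each the 3 genes with the most alike pattern (1 of which is not reported here), and at most 4 genes of each list with the largest change in each comparison with DMSO. Gm42418, Ddx3y, Kdm5d and Uty were named after their values were seen, and so was the 5-AZA-CdR library as a reference. Scripts were tested on simulated counts. For the antibody fits these had a fixed spread and no treatment effect, which does not show the power of the fits on these data. Alternatives covered scaling, pseudocounts of 0.1 and 2 CPM, the filter and a 4-fold line. Python 3.11.15, numpy 2.4.6, pandas 2.3.3, scipy 1.17.1 and matplotlib 3.10.9 were used.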

Additional observations from a re-analysis of the deposited data

Results flagged for a closer look

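Some members had log2 values of opposite sign in total RNA and in precipitated RNA under the same treatment label. With 1 library per condition the differences between assays were not tested. With 5-AZA-CdR against DMSO, Ifih1 was at -0.12 in total RNA, 0.76 in J2 and 0.12 in Z22 (log2). Ddx58 was at -0.23, 0.34 and 1.06 in the same order. Trim25 was at -0.10, 0.65 and 0.52, and Eif2ak2 at -0.23, 0.16 and 0.26. Mavs was at -0.44 in total RNA and 1.02 in Z22. Of these values for 5-AZA-CdR, Ddx58 and Mavs in Z22 were past the 2-fold line and the others were not. With ADAR1i-124 against DMSO, Mavs was at -0.24 in total RNA, 0.37 in J2 and 0.94 in Z22, none past the line. Ddx58 was at -3.11 in total RNA, past the line, and at 0.08 in Z22, with an interval that spans 0. The Z22 values stand beside medians of all genes of 1.06 with 5-AZA-CdR and 0.81 with ADAR1i-124. Relative to that median, Ifih1, Ddx58, Mavs, Trim25 and Eif2ak2 were all below 0 in Z22 with 5-AZA-CdR, and Mavs with ADAR1i-124 was at 0.13. The total RNA and J2 libraries of a treatment label also differ in Ddx3y, whose part in these differences was not tested.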

How the results depend on the processing

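With 1 library per treatment, only counting error is known, and the depth leaves it small for these genes. In some comparisons, such as 5-AZA-CdR against DMSO in total RNA, no member was past the line under any setting. The antibody contrasts also called no member. Such alternatives are among the 120 that follow. The number of members past the line kept within 1.5 times of its main value in 120 of 145 alternatives and moved in 25. With a 4-fold line it was 1 in place of 4 for ADAR1i-124 against DMSO in J2, 2 in place of 5 for the combination against ADAR1i-124 in J2, 0 in place of 4 for that comparison in Z22, and 0 in each comparison of Z22 with DMSO. For ADAR1i-124 against DMSO in Z22 (1 member), it was 3 with TMM factors, DESeq2's size factors or relative to the median of all genes, and 2 without Gm42418 or without the 20 genes of the highest share. For 5-AZA-CdR against DMSO in Z22 (2 members), it was 0 with TMM, without Gm42418 or without the top 20 genes, 1 with a pseudocount of 2 CPM (Ddx58, higher), and 1 with DESeq2's size factors or relative to the median (Dhx58, lower, not past the line with library totals). For the combination against DMSO in Z22 (1 member), it was 0 under each other scaling and relative to the median. Of the Z22 ratios to IgG (0 past the line), 1 was past it with TMM or without the top 20 genes and 3 with DESeq2's size factors. Among values past the line the sign turned for 2, Ddx58 and Mavs in Z22 with 5-AZA-CdR, which were at -0.0114 and -0.0415 with DESeq2's size factors and at -0.0012 and -0.0453 relative to the median. Ddx58 in Z22 with ADAR1i-124, not past the line at 0.08, was between -0.31 and -0.78 under the other scalings. Of 798 alternatives for single genes, the sign turned in 52, of which 45 were in comparisons of Z22 with DMSO and 4 were of values past the line. With TMM factors in Z22 with 5-AZA-CdR, Ifih1 was at -0.84, Dhx58 at -0.93, Trim25 at -0.44 and Eif2ak2 at -0.71. With the combination in Z22, the members other than Ddx58 were between -0.10 and -0.35 with TMM.

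No member was called in any antibody contrast under any alternative. For Z22 against J2 (0 genes called by edgeR), 651 were higher and 279 lower with DESeq2, 851 and 623 without the filter, and 615 and 242 without the DMSO pair. For J2 against total RNA (5 higher, 0 lower), these were 317 and 109, 347 and 208, and 399 and 298, with 11 higher without the ADAR1i-124 pair and 2 without the 5-AZA-CdR pair. For Z22 against total RNA (12 higher, 0 lower), they were 260 and 59, 198 and 78, and 4 and 0, with 30 and 10 without the ADAR1i-124 pair and 63 and 3 without the 5-AZA-CdR pair. With library totals as the scaling, 3 and 6 genes were higher against total RNA. The lowest adjusted p of a member in edgeR was 0.0554, for Ifih1 in J2 against total RNA without the DMSO pair. All members had higher log2 values in that fit than in the full one, for example Dhx58 at 1.64. Without the ADAR1i-124 pair, Dhx58 was at 0.54, Eif2ak2 at 0.48, Ifih1 at 0.37, Trim25 at 0.27, Ddx58 at 0.05 and Mavs at -0.66. For Z22 against total RNA without the ADAR1i-124 pair, Dhx58 was at 0.72, Ifih1 at 0.70, Eif2ak2 at 0.61 and Trim25 at 0.56. Ddx58 was at -0.26 there and Mavs at -0.12. Without the 5-AZA-CdR pair, all members but Mavs were higher than in the full fit, for example Dhx58 at 2.59. Without treatment as a block, no gene was called in any of the 3 contrasts. Within an assay, no paired analysis was possible because each condition has 1 library. A fit of the treatments with assay as a block was not run.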

Other observations

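Adar, the gene of the enzyme that ADAR1i-124 inhibits, was at 233 CPM with DMSO, 58.9 CPM with ADAR1i-124 and 198 CPM with 5-AZA-CdR in total RNA. With J2 it was at 176, 83.3, 255 and 243 CPM in that order, with the combination last, and with Z22 at 149, 125, 241 and 285 CPM. Its lowest library in each assay was that with ADAR1i-124, as for Trim25. Irf3, the constitutive partner of Irf7, was at 25.4, 37.8 and 43.3 CPM in total RNA in the order DMSO, ADAR1i-124 and 5-AZA-CdR.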
